A study of Mus musculus with 4 samples.

Results

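In mouse islet cells given MOTS-c ex vivo, the transcript of the accessory protein Ramp2 and that of the peptide ligand Adm2 stood lower than in cells given a scrambled peptide, and the transcript of Ramp3 stood higher. The genes described are the 9 members of the calcitonin receptor system on the array, of 22911 genes named there: the accessory proteins Ramp1, Ramp2 and Ramp3, the receptors Calcr and Calcrl, and the ligand genes Calca, Calcb, Adm and Adm2. The members are those of the known family, but the family was selected on measured values, the differences between MOTS-c and scrambled arrays, which were known when it was chosen. That is the contrast described here, so the differences of its members are given without a test.

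All 4 samples were islet cells of C57BL/6 mice, 60 weeks old and labelled male. Islets were freed with collagenase, handpicked and dispersed, and the cells were kept for 24 h with 10 μM of MOTS-c, a peptide encoded in the mitochondrial 12S rRNA gene, or of a scrambled peptide. The study describes cells from 4 littermates, with 2 samples in each group. The labels do not say which animal gave which sample, or whether each sample came from 1 animal. The spread between samples may therefore be technical or biological. Samples carry the numbers of their titles: replicates 1 and 2 of the scrambled group and replicates 2 and 3 of the MOTS-c group. Each RNA was labeled with Cy3 and hybridized to 1 Agilent whole-genome array, and all 4 arrays lay on 1 slide scanned at 1 time.

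Between 61.6% and 65.0% of gene spots per array were well above background, the scanner software's call that a spot exceeds its local surroundings, and no gene spot was saturated. The number of arrays limits the precision: with 2 against 2, an exact two-sided permutation test cannot go below p = 0.333. MOTS-c replicate 3 stood apart on the first principal component, at 51.0 against -34.4 to -5.03 for the other arrays. Across 35087 probes tested, limma with Benjamini-Hochberg adjustment called 0 probes (0%), with 2755 at an unadjusted p under 0.05, and the methods' t-test called 1 after adjustment, with 2312 unadjusted. The labels give male mice, yet 0 of 28 pairs of Y-linked probe and array were well above background, and Xist signal was 23.7 to 33.5 times background on the 4 arrays. Every array went against its label in this check, in both groups alike, so leaving out such arrays was not possible. Insulin and glucagon transcripts were bright on every array, as the labelled tissue would have them: log2 18.09 to 18.13 for Ins1 and 15.56 to 15.72 for Gcg.

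RAMPs are single-pass membrane proteins that travel to the cell surface with a class B G protein-coupled receptor and set which peptide it binds. Calcrl answers calcitonin gene-related peptide when paired with Ramp1 and adrenomedullin when paired with Ramp2 or Ramp3. Calcr binds calcitonin alone and amylin when paired with a RAMP. These receptors couple mainly to Gs and raise cAMP. In islets, amylin is stored and released with insulin by beta cells, adrenomedullin is known to lower insulin secretion, and calcitonin gene-related peptide is found in islet nerve fibers.

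Upstream sequences of Ramp3, Adm and Adm2 are shown so that the elements near their start sites can be compared, because Ramp3 and Adm stood higher and Adm2 lower in MOTS-c arrays. They are the 250 bases before the annotated start in RefSeq on GRCm38.p6, 5′ to 3′ on the strand of the gene, at chr11:6658283-6658532 for Ramp3, chr7:110627407-110627656 for Adm and chr15:89322470-89322719 for Adm2, all on the plus strand. The table held a sequence for 7 of the 9 members, all but Ramp2 and Calcb. Capitals mark matches on either strand to TATAA, the core of a TATA box, or to GGGCGG, the core of a GC box.
Ramp3: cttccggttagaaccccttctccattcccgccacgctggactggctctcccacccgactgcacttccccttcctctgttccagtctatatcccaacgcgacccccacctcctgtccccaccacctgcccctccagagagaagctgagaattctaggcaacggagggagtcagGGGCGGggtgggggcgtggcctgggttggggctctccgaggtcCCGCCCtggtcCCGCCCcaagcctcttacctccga
Adm: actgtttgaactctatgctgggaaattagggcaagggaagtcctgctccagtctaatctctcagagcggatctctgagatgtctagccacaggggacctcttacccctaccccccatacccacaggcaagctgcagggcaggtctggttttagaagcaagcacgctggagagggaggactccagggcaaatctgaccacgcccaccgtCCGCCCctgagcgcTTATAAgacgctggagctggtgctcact
Adm2: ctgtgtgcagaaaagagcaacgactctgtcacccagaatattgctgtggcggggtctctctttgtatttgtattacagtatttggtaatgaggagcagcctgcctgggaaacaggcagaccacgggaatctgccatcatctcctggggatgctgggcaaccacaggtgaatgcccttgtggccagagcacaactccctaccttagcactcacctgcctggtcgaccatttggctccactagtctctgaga
The Ramp3 window held GGGCGG at 3 places and 13 CG pairs, with 65.2% G and C, against a median of 6 CG pairs over all 32851 windows of this length. The Adm window held 2 overlapping TATAA matches, 1 on each strand, the first of them 28 bases before the start, and 1 GGGCGG. The Adm2 window held neither and had 4 CG pairs. Over all windows, 22.8% held TATAA and 32.7% held GGGCGG on either strand. TGACG, the core of a cAMP response element, was found in 0 of these 3 windows, against 17.8% of all windows. ACGTG, which occurs in E-boxes and is a form of the hypoxia response element core, was also found in 0, against 16.6%. The other form of that core, GCGTG, was not among the motifs searched. Its letters, on either strand, are present in the Ramp3 and Adm windows, so absence of that element is not shown. TATAA and GGGCGG were added to the search after the sequences were seen, and a match is only a description of letters.

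The 9 members were covered by 14 probes. Of these, 10 probes of 7 genes were well above background on all 4 arrays and passed the filter of at least 2 arrays. One further probe of Ramp1 was well above background on 1 array, MOTS-c replicate 2, and 3 probes were so on 0 arrays: the second Calcr probe and the single probes of Calcrl and Calcb. Probes differ in how they bind, so no level of one probe is set against that of another, and each value below is compared across arrays only.

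**Figure D1:**
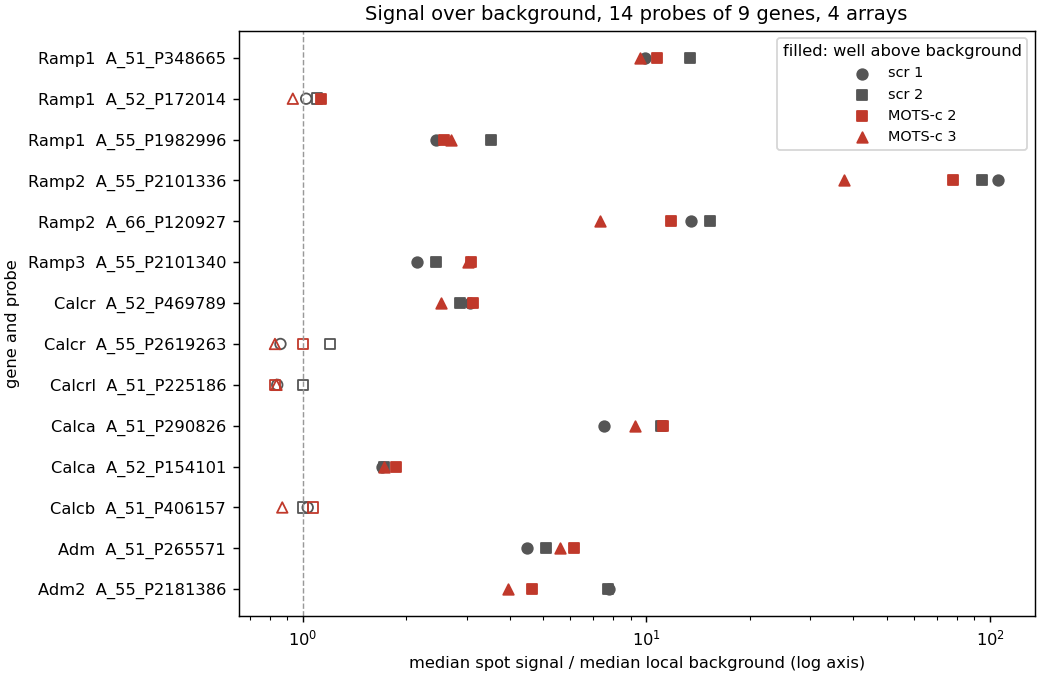
Median spot signal divided by median local background, on a log axis, for each of the 14 probes of the 9 genes on the scrambled (scr) and MOTS-c arrays; filled points were well above background, open points were not, and the dashed line marks equal signal and background. The brighter Ramp2 probe stood farthest above background on every array, Ramp3 and the dimmer Calca probe were closer to it, and the Calcrl and Calcb points are open.

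Ramp2, the partner that turns Calcrl into an adrenomedullin receptor, was lower in MOTS-c arrays on both of its probes. The brighter probe, A_55_P2101336, gave a processed signal of 3891 and 3468 in scrambled replicates 1 and 2, and of 2648 and 1591 in MOTS-c replicates 2 and 3. On the quantile normalized log2 scale these were 11.90, 11.86, 11.33 and 10.59. Each MOTS-c value was under each scrambled value, with a gap of 0.53 between the nearest 2, and the lowest value by far was that of MOTS-c replicate 3. The group means were 11.88 ± 0.03 and 10.96 ± 0.52 (SD, n = 2), a log2 difference of -0.92 with a limma standard error of 0.27, or 1.89-fold lower.

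The second Ramp2 probe, A_66_P120927, gave 471 and 437 in the scrambled arrays and 419 and 238 in the MOTS-c arrays, or log2 8.84, 8.90, 8.71 and 7.79. The groups did not overlap here either, but the gap was only 0.13 and the difference lay almost wholly in MOTS-c replicate 3. Its log2 difference was -0.62, SE 0.33, or 1.54-fold lower. Without MOTS-c replicate 3, the array that stands apart, the Ramp2 differences were -0.55 on the brighter probe and -0.16 on the other, both short of 1.5-fold. Ramp2 was thus lower in each MOTS-c array than in each scrambled array, while the size of the difference turned on 1 array.

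Ramp3, the other adrenomedullin partner, differed in the opposite direction. Its probe, A_55_P2101340, gave 21.4 and 23.3 in the scrambled arrays and 49.2 and 44.4 in the MOTS-c arrays, or log2 4.43, 4.62, 5.67 and 5.35. Each MOTS-c value was over each scrambled value with a gap of 0.73, and replicates of a group were close. The means were 4.52 ± 0.14 and 5.51 ± 0.23 (SD, n = 2), a log2 difference of 0.99, SE 0.17, or 1.98-fold higher. On leaving out each array in turn it ran from 0.83, without MOTS-c replicate 2, to 1.16, without MOTS-c replicate 3. The Ramp3 spots were only 2.15 to 3.08 times local background, and their mean signal was at percentile 12.1 of the probes tested. With a normexp background correction, which adds an offset to every spot, the difference was 0.29, in the same direction.

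Ramp1, the partner for calcitonin gene-related peptide, did not separate the groups. Its brightest probe, A_51_P348665, gave 377 and 411 in the scrambled arrays and 412 and 400 in the MOTS-c arrays, or log2 8.51, 8.81, 8.69 and 8.56. The values overlapped, with a difference of -0.04, SE 0.16. The dimmer probe, A_55_P1982996, gave log2 6.21, 6.62, 6.28 and 6.17, also overlapping, with a difference of -0.19, SE 0.18. On both probes the scrambled arrays lay farther from each other than the MOTS-c arrays did.

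Of the receptors, Calcr was measured by 1 probe, A_52_P469789, with signals of 75.7 and 57.0 in the scrambled arrays and 66.2 and 59.3 in the MOTS-c arrays. In log2 these were 6.21, 5.93, 6.10 and 5.77, which overlap, with a difference of -0.14, SE 0.18. Its other probe, A_55_P2619263, gave 2.84 to 4.88 on the 4 arrays, at 0.83 to 1.20 times background. Calcrl, the receptor through which adrenomedullin and calcitonin gene-related peptide act, gave 3.22 to 3.75, at or under the local background on each of them. No fold is given for these, because neither group had a measured level.

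**Figure D2:**
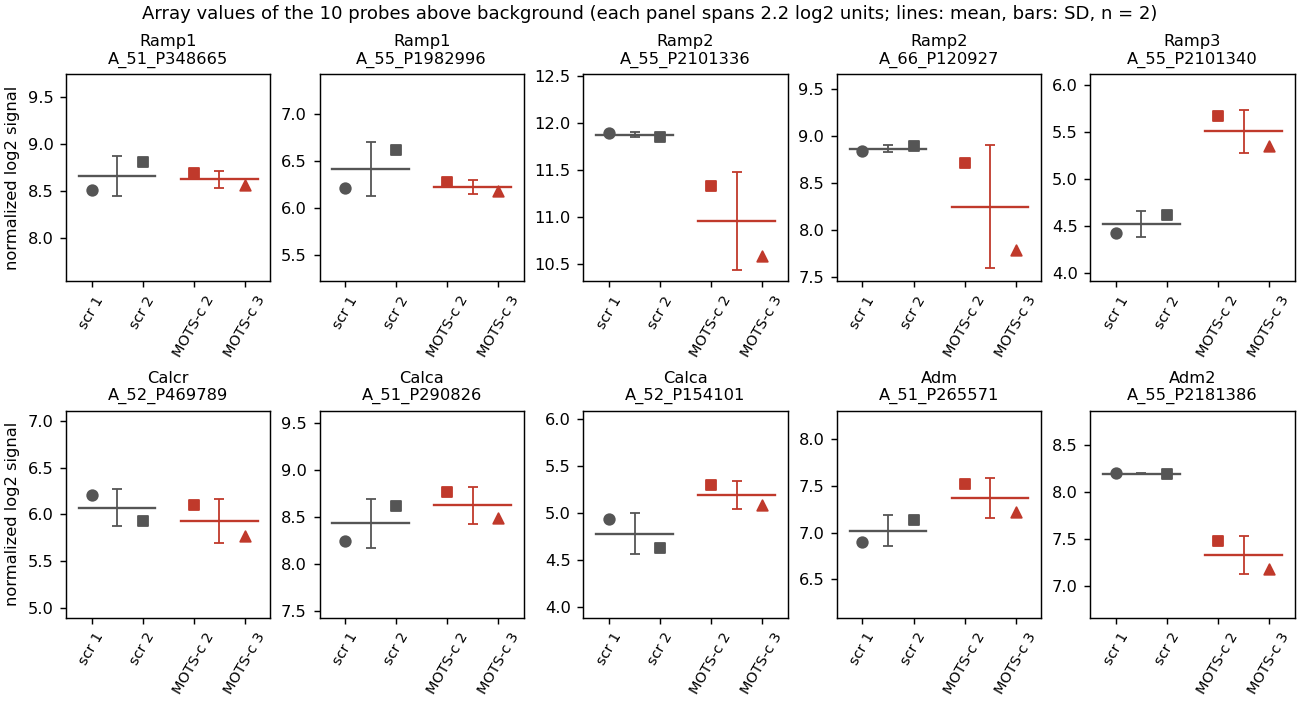
Quantile normalized log2 signal of the 10 member probes that passed the filter, a panel for each, with every scrambled (scr) and MOTS-c array as a point, a line at each group's mean and a bar for the SD (n = 2); each panel has its own axis range of equal height. The MOTS-c points of Ramp3, Adm and the dimmer Calca probe are above the scrambled points, those of Adm2 and of both Ramp2 probes are below, and those of Ramp1, Calcr and the brighter Calca probe overlap them.

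Among the ligand genes, Adm2, which encodes the adrenomedullin-like peptide intermedin, was lower in MOTS-c arrays. Its probe, A_55_P2181386, gave 302 and 267 in the scrambled arrays and 174 and 157 in the MOTS-c arrays, or log2 8.20, 8.19, 7.47 and 7.18. The groups were apart by 0.71 and the scrambled values nearly coincided. The means were 8.19 ± 0.01 and 7.33 ± 0.21 (SD, n = 2), a log2 difference of -0.87, SE 0.15, or 1.82-fold lower. No single array carried it: on leaving out each array in turn, the smallest difference was -0.72, without MOTS-c replicate 3.

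Adm, which encodes adrenomedullin itself, lay on the other side by a smaller amount. Its probe, A_51_P265571, gave 123 and 130 in the scrambled arrays and 180 and 160 in the MOTS-c arrays, or log2 6.90, 7.13, 7.52 and 7.22. The groups were apart by only 0.08, less than the difference between the 2 arrays of either group. The log2 difference was 0.35, SE 0.17, or 1.28-fold higher, and it was 0.20 without MOTS-c replicate 2 and 0.51 without MOTS-c replicate 3. Without scrambled replicate 2 it was 0.47 and without scrambled replicate 1 it was 0.23.

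Calca encodes calcitonin and calcitonin gene-related peptide by alternative splicing, and its probes differed in whether the groups overlapped. The brighter probe, A_51_P290826, gave 313 and 360 in the scrambled arrays and 437 and 381 in the MOTS-c arrays, but after normalization log2 was 8.25, 8.62, 8.77 and 8.49, which overlap, with a difference of 0.20, SE 0.19. The dimmer probe, A_52_P154101, gave 30.5 and 23.3 against 37.6 and 37.3, or log2 4.93, 4.62, 5.29 and 5.08. Here both MOTS-c arrays were above by a gap of 0.15, with a difference of 0.41, SE 0.17, on spots only 1.70 to 1.87 times background, and 0.12 with normexp. The files used here do not tell which splice form each probe reads. Calcb, which encodes the beta form of calcitonin gene-related peptide, gave 2.73 to 3.42 at 0.87 to 1.07 times background and has no measured level in either group.

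Of the 10 member probes that passed the filter, 1 was at least 1.5-fold higher in MOTS-c arrays, Ramp3, against 1.81% of all probes tested, and 3 were at least 1.5-fold lower, Adm2 and both Ramp2 probes, against 3.43%. The MOTS-c values were entirely above the scrambled values on 3 member probes, against 19.4% of all probes, and entirely below on 3, against 18.6%. Nothing is read from these counts, since the same contrast helped to choose the family. The median log2 difference over the 10 probes was -0.09, against 0.01 over all probes. Just outside the 1.5-fold limit, log2 0.58, stood the dimmer Calca probe at 0.41, and just inside it the second Ramp2 probe at -0.62.

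**Figure D3:**
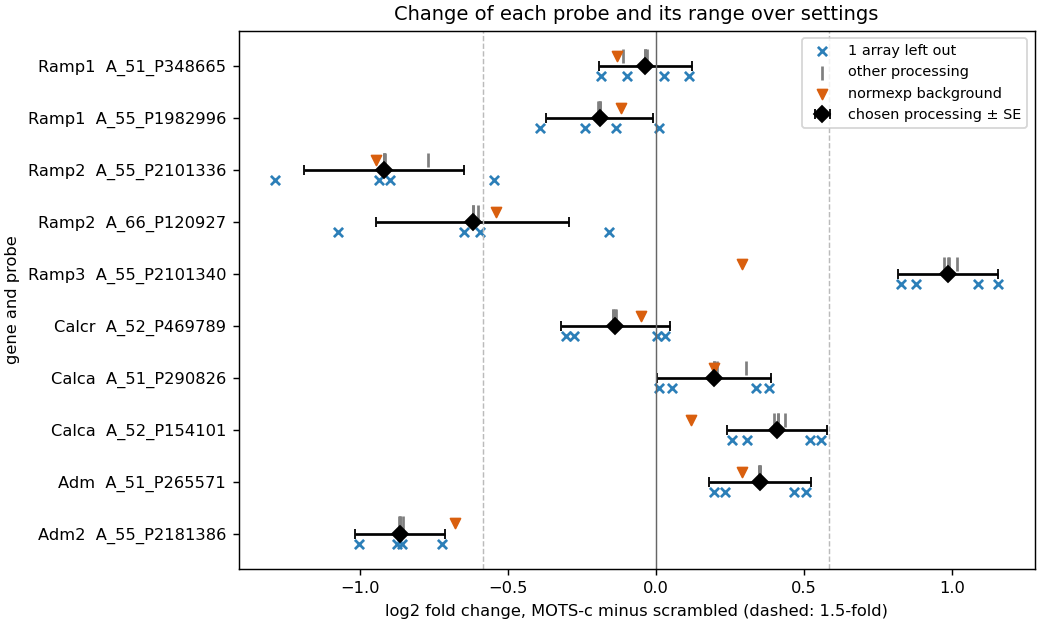
Log2 difference, MOTS-c minus scrambled, of each member probe that passed the filter, as a diamond with the limma standard error as a bar; crosses are values with 1 array left out, triangles those with normexp background correction and vertical ticks those under other processing. The triangle of Ramp3, at 0.29, is the one farthest from its diamond, at 0.99, and the crosses of both Ramp2 probes spread widest, with those without MOTS-c replicate 3 inside the dashed line of 1.5-fold.

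The other genes of the system were taken from 5 lists with 63 genes in all: other receptors that RAMPs bind, amylin with ligand processing and clearance, receptor coupling and trafficking, cAMP production and effectors, and class B receptors outside the family. By the brightest probe of each gene, 56 genes were tested. After adjustment over all probes 0 passed by limma and 0 by the methods' t-test. At an unadjusted p under 0.05, 0 were higher and 8 were lower by limma (14.3% of the 56), against 3.03% higher and 4.82% lower among all probes, and the methods' t-test had 2 higher and 7 lower. The median log2 difference of the 56 genes was -0.10, against 0.01 over all probes. Of the 8, Casr passed the filter through the scrambled arrays alone, and without it 7 of 55 were lower (12.7%). Without scrambled replicate 1 the 8 became 3, and without MOTS-c replicate 3 they became 4. The lists were drawn up with earlier results of these data known, so this count is not independent evidence of a direction.

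**Figure D4:**
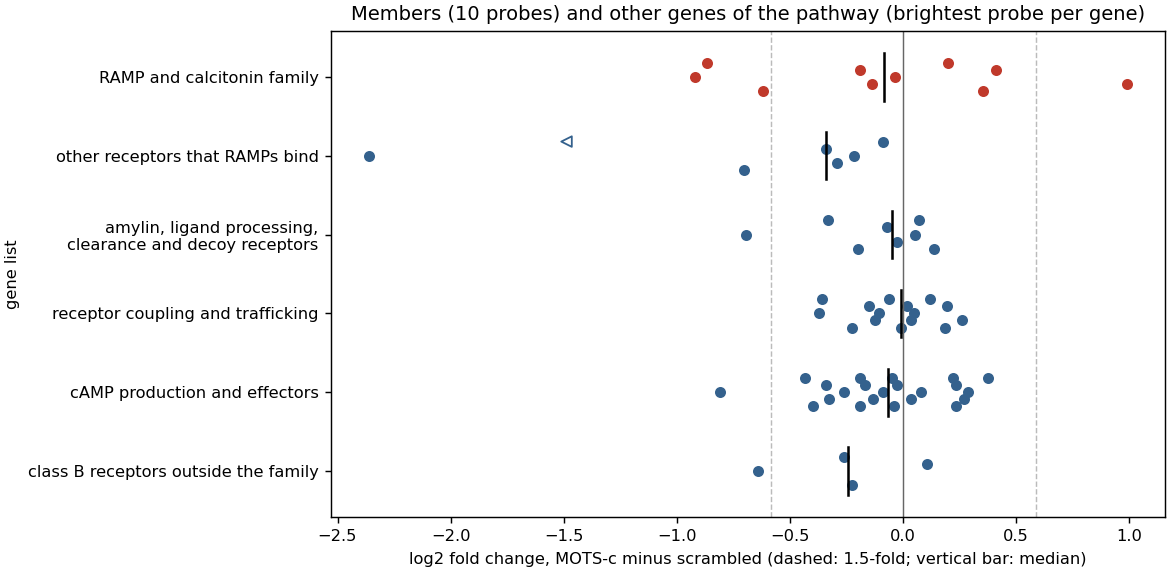
Log2 difference, MOTS-c minus scrambled, of the 10 member probes in the top row and of the 56 tested genes of the 5 lists in the rows under it, with a vertical bar at each row's median and dashed lines at 1.5-fold; the open triangle is Casr at its bound of 2.80-fold lower. The 6 genes left of the lower dashed line are spread over the lists of RAMP-bound receptors, ligand processing and clearance, cAMP and class B receptors, and no gene of the lists lies right of the upper one.

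Of the other receptors that RAMPs bind, 7 of 10 genes were tested, 0 were higher and 4 lower at the unadjusted threshold, and the median was -0.34. Sctr, Pth1r and Pth2r were not well above background on any array. Casr, the calcium-sensing receptor, was well above background on both scrambled arrays, at log2 4.95 and 5.35, and on neither MOTS-c array, at 2.98 and 2.39. It was therefore at least 2.80-fold lower in MOTS-c arrays (limma adjusted p = 0.474), a bound set by the lowest signal called well above background, and it passed the filter through the scrambled arrays alone. Gper1, the G protein-coupled estrogen receptor, gave 5.51, 5.71, 4.02 and 2.48, a fitted difference of -2.36, SE 0.52 (limma adjusted p = 0.505). It was well above background on both scrambled arrays but on only 1 of the 2 MOTS-c arrays, so the size of that difference rests in part on a value that is not a measured level. Gipr, the receptor for the incretin GIP, gave 11.10, 10.64, 10.22 and 10.11, a difference of -0.70, SE 0.19 (limma adjusted p = 0.539). Crhr1, a receptor for corticotropin-releasing hormone, was lower by a log2 difference of -0.34, SE 0.12 (limma adjusted p = 0.614). Both MOTS-c arrays were below both scrambled arrays for 5 of the 7 genes: Casr, Gper1, Gipr, Crhr1 and Vipr1, a receptor for the peptide VIP. Both were above for 0. Among all probes tested these shares were 18.6% below and 19.4% above.

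Among amylin and the genes that process or clear these peptides, 8 of 10 were tested, 0 were higher and 0 lower at the unadjusted threshold, and the median was -0.05. Mme and Gpr182 were not well above background on any array. Ackr3, a chemokine receptor that also takes up adrenomedullin, had the widest difference, -0.70, SE 0.27 (limma adjusted p = 0.647), followed by the peptidase Ece1 at -0.33, the prohormone convertase Pcsk1 at -0.20 and the insulin-degrading enzyme Ide at 0.14. Iapp, which encodes amylin, gave log2 17.01, 17.05, 17.09 and 17.11, a difference of 0.07.

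All 15 genes of receptor coupling and trafficking were tested, with 0 higher, 1 lower and a median of -0.01. The lower one was Grk3, a receptor kinase, at -0.36, SE 0.12 (limma adjusted p = 0.595). Arrb1, a beta-arrestin, stood at -0.37, SE 0.15 (limma adjusted p = 0.654), the receptor kinase Grk5 at 0.26 and the second beta-arrestin Arrb2 at -0.23, none of them past the unadjusted threshold.

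Of the cAMP genes, 22 of 23 were tested, with 0 higher, 2 lower and a median of -0.07, and Adcy4 was not well above background on any array. Rapgef3, which encodes the cAMP-activated exchange factor Epac1, gave 7.95, 8.01, 7.30 and 7.04, a difference of -0.81, SE 0.15 (limma adjusted p = 0.474), with the groups 0.65 apart. Prkar1b, a regulatory subunit of protein kinase A, was the other, at -0.34, with its second probe at -0.64. The adenylyl cyclases Adcy1 and Adcy7 stood at -0.44 and -0.40, and the cAMP-responsive repressor gene Crem at 0.37, none past the unadjusted threshold. The other probes of Crem ran from -0.21 to 0.52, so its probes differed in direction.

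Of the class B receptors outside the family, 4 of 5 were tested, with 0 higher, 1 lower and a median of -0.25, and Ghrhr was not well above background on any array. Glp1r, the receptor for the incretin GLP-1, gave 9.54, 9.28, 8.78 and 8.76, a difference of -0.64, SE 0.14 (limma adjusted p = 0.509). Adcyap1r1, Crhr2 and Glp2r stood at -0.26, -0.23 and 0.11. The 8 genes lower at the unadjusted threshold were thus Casr, Gper1, Gipr, Crhr1, Grk3, Rapgef3, Prkar1b and Glp1r. Of the 56 genes, 6 were at least 1.5-fold lower and 0 as much higher, against 3.43% and 1.81% of all probes. Casr and Gper1, among the 6, were not well above background on every MOTS-c array.

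In a mixture of islet cells, fewer cells of a type and less RNA per cell cannot be told apart. Ramp2 and Adm are also made by endothelial cells. Of 12 endothelial markers, 5 were tested, the median log2 difference was 0.01, and their summed level was 6118 to 7061 in the scrambled and 6370 to 7061 in the MOTS-c arrays, which overlap. Of these 5, 0 were higher and 1 was lower at the unadjusted threshold: Esam, an endothelial adhesion molecule, gave log2 8.53, 8.54, 8.23 and 7.99, a difference of -0.43, SE 0.14 (limma adjusted p = 0.578), with MOTS-c replicate 3 lowest, as for Ramp2. Eng stood at -0.18 with both MOTS-c arrays below. Pecam1 stood at 0.18, Egfl7 at 0.07 and Plvap at 0.01, with overlapping groups. MOTS-c replicate 3 was the lowest array for none of Eng, Pecam1, Egfl7 and Plvap. The defining endothelial genes Cdh5, Kdr, Tek, Tie1 and Emcn were not well above background on any array. Of 8 mesenchymal markers 3 were tested, with a median of -0.30, 1 lower, and sums of 315 to 380 and 240 to 307, and Pdgfrb, Col3a1, Dcn and Lum were not well above background on any array. Of 6 macrophage markers 3 were tested, with a median of 0.16 and sums of 2713 to 4333 and 2704 to 3497. The 1 that was higher at the unadjusted threshold, Cd14, was well above background on the MOTS-c arrays alone and passed the filter through them, at least 1.35-fold higher. Of the macrophage genes, Ptprc, Adgre1 and Lyz2 were not well above background on any array.

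Beta cell markers had 7 of 8 genes tested, 1 lower at the unadjusted threshold and a median of -0.05, with summed levels of 739610 to 762116 in the scrambled and 724032 to 725034 in the MOTS-c arrays. Most of that sum is Ins1 and Ins2, whose values at the top of the range are largely set by rank in quantile normalization. The sum therefore says little about beta cell content. The 1 lower beta cell marker, Slc2a2, the glucose transporter of beta cells, gave 5.23, 5.26, 3.81 and 4.02, a fitted difference of -1.33, SE 0.14 (limma adjusted p = 0.474). It was well above background on both scrambled arrays but on only 1 of the 2 MOTS-c arrays. The size of that difference thus rests in part on a value that is not a measured level. Both MOTS-c arrays were below for 4 of the 7 and above for 2, Mafa at 0.16 and Nkx6-1 at 0.12. Among all probes tested the shares were 18.6% below and 19.4% above. Ucn3 was not well above background on any array. Of the alpha cell markers, Gcg stood at 0.11, and Irx2 was higher at the unadjusted threshold, at 0.68, SE 0.16 (limma adjusted p = 0.519). The alpha cell gene Ttr stood at -0.27, with its other probe at -0.34, and its groups overlapped. Acinar markers had 3 of 8 tested, 1 lower and a median of -0.14, with sums of 3606 to 3940 and 2057 to 2529. Nearly all of that sum is Cela1, the lower one, at -0.76. Ctrb1 stood at 0.33 with both MOTS-c arrays above, and Cel at -0.14 with overlapping groups. The acinar genes Pnlip, Amy2a5 and Prss2 were not well above background on any array. The median was -0.25 for delta cells (3 of 3 tested), 0.32 for PP cells (1 of 2), -0.39 for duct cells (3 of 5), 0.54 for pericytes and smooth muscle (3 of 6), -0.06 for lymphocytes (2 of 7) and -0.32 for Schwann cells and neurons (4 of 7). Cnn1, a smooth muscle gene, was well above background on both MOTS-c arrays and neither scrambled array, so it passed the filter through the MOTS-c arrays alone, and it was at least 1.55-fold higher there (limma adjusted p = 0.626). The part of these shifts in the differences of Ramp2, Ramp3, Adm and Adm2 was not tested.

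The genes whose values moved most like those of Ramp2 over the 4 arrays were Ampd3, an AMP deaminase, Hhat, an acyltransferase, and Necab2, a calcium-binding protein. Likeness was the Euclidean distance between log2 values centered on their mean, searched over 14788 genes with a probe well above background on every array. The distances were 0.058, 0.070 and 0.073. Hhat gave 12.44, 12.42, 11.81 and 11.15, with MOTS-c replicate 3 lowest, as for Ramp2. Nearest Ramp3 were Ccno, a cyclin-like gene, and Fzd9, a Wnt receptor, at distances of 0.132 and 0.156. Ccno gave 8.34, 8.41, 9.40 and 9.19. These are descriptions over 4 arrays that were normalized together, with no test.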

How the data were processed

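The authors labeled total RNA from each of 4 samples with Cy3, hybridized it to Agilent one-color arrays and deposited the scanner output as intensity per spot, made with Feature Extraction 11.0.1.1, together with a value table whose values were 0.995 to 1.00 times the scanner's processed intensity, so it was linear and not yet normalized, and ran in the same direction. Its column medians were 46.6 to 54.9. The study's methods take logs, filter on a flag that the sources used here do not define, and normalize by quantiles.

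Here, control spots (3671) and outlier spots (96 to 131 per array) were left out, the spots of a probe were averaged, and of 56605 probes the 35087 that exceeded background clearly, by the scanner's own call, on 2 or more of the 4 arrays were kept. The log2 values were quantile normalized and fitted with limma 3.58.1 in R 4.3.3, with Benjamini-Hochberg adjustment over all probes and 1.5-fold (log2 0.58) as the limit of size. The fit had 2 residual degrees of freedom. A probe not well above background in a group has only a bound there. Probes were named through the RefSeq gene table of GRCm38.p6 by accession, which gave 32994 of them a symbol. The array was designed on another build, so no probe coordinates are given.

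The family, the 5 lists of other pathway genes and the 12 lists of cell type markers were chosen with earlier results of these data known. Named are every member with every probe, up to 4 genes of each pathway list with the largest log2 difference, the highest and lowest cell type marker, and the 3 genes most like Ramp2 and Ramp3. Prkar1b, Iapp, Ins1, Gcg, Irx2, Ttr, Esam, Cd14 and the markers without signal were named after their values were seen. Items withheld for evaluation, and the results that need them, are not reported here. Groups came from the labelled treatment. Alternatives were another scaling, normexp with an offset of 50, the value table, no or a strict filter, a variance trend, the methods' t-test, the mean over probes and leaving out each array. The fit was tested on simulated data.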

Additional observations from a re-analysis of the deposited data

How the results depend on the processing

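Probes at an unadjusted p under 0.05 and 1.5-fold numbered 1239 (387 higher and 852 lower) in the quantile normalized limma fit, 406 with normexp, 457 by the methods' t-test, and 1374 to 3264 on leaving out each array, the most without MOTS-c replicate 2. Member probes at 1.5-fold numbered 4, but 5 with no filter on dim probes, 2 with normexp and 2 to 4 on leaving out each array, with 2 without MOTS-c replicate 3, where both Ramp2 probes fell short. Of 93 values of member probes under an alternative, 90 moved by less than the spread between replicates. With 2 arrays a group, leaving out 1 can hardly move a value by more than that spread, so for those values this is no sign of stability. The Ramp2 values without MOTS-c replicate 3, -0.55 and -0.16, are among the 90. A change of sign was seen in 5, all on leaving out 1 array from Ramp1 or Calcr probes whose groups overlap. The 3 that moved further than that spread were all with normexp: Ramp3 at 0.29, Adm2 at -0.68 and the dimmer Calca probe at 0.12. The cause was not tested. Pathway genes lower at the unadjusted threshold numbered 8, but 14 with normexp, 3 to 9 on leaving out each array, and 7 to 12 under the remaining alternatives, all chosen after seeing the data for this count. Pathway genes higher at that threshold numbered 0, but 2 with normexp, 3 with no filter on dim probes, 1 with a variance trend and 2 by the methods' t-test. No paired analysis was possible because the labels give no pairing of samples, and the title numbers are not stated to identify animals. With 2 arrays a group, dim spots such as those of Ramp3 and Calca limit what can be measured, and nothing is measured of Calcrl and Calcb. Normexp was run on median spot signals.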
